A study of Penicillium oxalicum with 18 samples.

Results

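The difference in transcription level between Refbx23 and WT of Penicillium oxalicum was compared between a cellulose medium (VMMC) and a glucose medium (VMMG). For each gene the interaction contrast was the difference Refbx23 minus WT in VMMC, minus the same difference in VMMG, on log2(FPKM + 1), where FPKM is the number of sequenced fragments normalised to transcript length and to the mapped reads of the library. The genes were all those with a mean of at least 1 FPKM over the 12 libraries of these 4 groups, which gave 8072 of the 9230 genes in the table. At the edge of this filter, PDE_00356 and PDE_05249 entered with means of 1 FPKM and contrasts of 1.40 and 0.73, while PDE_07023 and PDE_08108 stayed out with means of 0.986 and 0.985 FPKM and contrasts of -0.31 and 0.46.

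The series holds 18 libraries, 3 for each of 3 strains in each medium, and 12 of them entered this comparison. The put-back strain, Refbx23 (Δfbx23::hph fbx23::ptrA), is the deletion strain Δfbx23 with fbx23 put back, so it carries a hygromycin and a pyrithiamine resistance marker that WT (strain 114-2) lacks. The 4 groups were Refbx23 in VMMC, WT in VMMC, Refbx23 in VMMG and WT in VMMG. Mycelia of every group were grown for 24 h in VMMG at 30 °C before transfer. The labels then give 18 h in modified Mandels medium (written Mendal's) with 1% bran and 1% microcrystalline cellulose, or with 2% glucose, whereas the methods give a longer time, Vogel's minimal medium and cellulose without bran. The third strain, Δfbx23, had the same media. It is given only as levels beside single genes, in a count over named genes and in an alternative fit.

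F-box proteins are the parts of SCF ubiquitin ligases that pick the substrate. In such a ligase Skp1 joins the F-box protein to the scaffold Cul1, and the RING protein Rbx1 brings in the ubiquitin-charged enzyme. In cellulolytic fungi glucose represses the genes of plant cell wall-degrading enzymes, and cellulose induces them. Ace1 is a zinc finger transcription factor, first described in Trichoderma reesei as a repressor of cellulase and xylanase genes. Fungi of this kind also make conidia, whose colour comes from dihydroxynaphthalene (DHN) melanin, and they keep many genes for secondary metabolites in clusters on the chromosome. Put-back strains are made to ask whether the phenotype of a deletion goes back to WT. The contrast here asks whether the difference of Refbx23 from WT, on whichever side, depends on the carbon source.

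FPKM summed to between 781397 and 954142 per library over the 12 libraries, and replicates of a group correlated with Pearson's r of 0.970 to 0.995 on log2(FPKM + 1) across genes. WT in VMMG replicate 3 stood furthest from its group, with a mean squared deviation of 0.147, against 0.0188 to 0.0841 for the other 11 libraries. The labels do not say that replicates were separate cultures. The study calls those of WT biological replicates and says nothing of the kind in the same place for Refbx23, so p-values measure the spread between these libraries, which may in part be technical. The targeted gene fbx23 (PDE_08467) could check only the labels of Δfbx23, whose 6 libraries each gave 0 FPKM for it. Refbx23 and WT both carry the gene, so it could not tell these strains apart, and it was no check of the medium. The labels of the 12 libraries compared here were thus not checked by it. In VMMC it had 58.5, 67 and 56.9 FPKM in Refbx23 and 58.9, 66.8 and 60.2 FPKM in WT. In VMMG it had 65.8, 64.4 and 74.9 FPKM in Refbx23 and 76.8, 73 and 70.1 FPKM in WT. The Refbx23 and WT values overlapped in VMMC, and in VMMG the highest Refbx23 library lay above 2 of the 3 WT libraries. The interaction contrast of fbx23 was 0.07 ± 0.13 (SE, n = 3 per group, limma adjusted p = 0.65), and it was not called.

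The strain difference depended on the medium for 2335 of the 8072 genes tested (28.9%), called at a contrast of at least 2-fold and a Benjamini-Hochberg adjusted p under 0.05 from limma. The contrast was positive, meaning a difference higher in VMMC than in VMMG, for 982 genes (12.2%). It was negative for 1353 genes (16.8%). The median contrast over all genes tested was -0.04, and the interquartile range was -0.67 to 0.51. The absolute contrast was at least 2 for 318 positive and 505 negative genes, and at least 4 for 61 positive and 65 negative genes. Values on log2(FPKM + 1) understate the changes of genes of low level. In mycelium taken as a whole, fewer cells of a type and less RNA per cell cannot be told apart.

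For most called genes the strain difference passed the call in only 1 medium. This sorting depends on the threshold, and a difference not called in the other medium was not shown to be absent. Without the fold threshold, 1304 of 4605 called genes had called differences of opposite signs. Of the called genes, 915 (39.2%) differed between Refbx23 and WT in VMMG only, and 575 of these were higher in Refbx23 and 340 lower. Another 487 (20.9%) differed in VMMC only, with 175 higher and 312 lower in Refbx23. For 165 genes (7.07%) the strain difference was called in both media with opposite signs, and for 52 genes (2.23%) with the same sign but unequal size. The remaining 716 genes (30.7%) reached the threshold for the contrast but in neither medium alone. Of these, the genes with a positive contrast had median differences of 0.60 in VMMC and -0.66 in VMMG. Those with a negative contrast had -0.64 in VMMC and 0.64 in VMMG. Over all genes tested, 987 (12.2%) were called between Refbx23 and WT in VMMC and 1487 (18.4%) in VMMG. In VMMC 437 were higher (5.41%) and 550 lower (6.81%) in Refbx23, and in VMMG 925 were higher (11.5%) and 562 lower (6.96%).

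**Figure D1:**
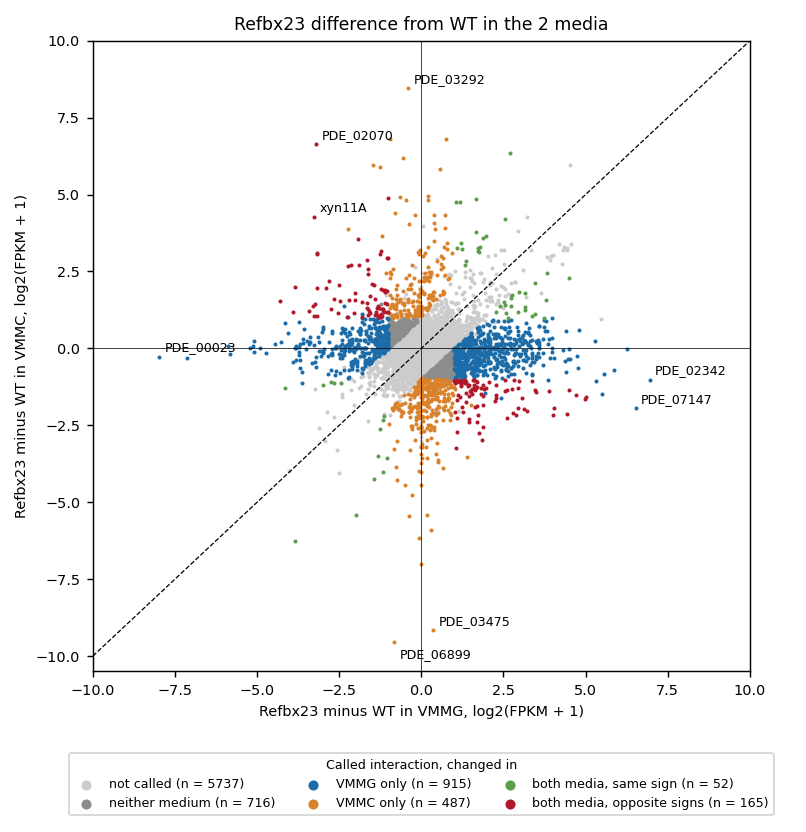
Each point is 1 of the 8072 genes tested, with the Refbx23 minus WT difference in VMMG on the horizontal axis and in VMMC on the vertical axis, both on log2(FPKM + 1). Colours give the class of the called interaction, and the dashed line marks equal differences. The 915 genes changed in VMMG only spread along the horizontal axis, and the 165 with opposite signs fill the upper left and lower right.

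The contrast can also be read as the response to medium in Refbx23 minus that in WT. Between VMMC and VMMG, 1690 genes (20.9%) were called in Refbx23, 1091 higher (13.5%) and 599 lower (7.42%) in VMMC, and 3335 genes (41.3%) were called in WT, 2075 higher (25.7%) and 1260 lower (15.6%). The absolute response was smaller in Refbx23 than in WT for 5916 of all genes tested (73.3%), with medians of 0.41 in Refbx23 and 0.79 in WT. Among the 1353 genes with a negative contrast, 346 were higher in VMMC than in VMMG in Refbx23 and 1155 in WT. Among the 982 with a positive contrast, 143 were lower in VMMC in Refbx23 and 730 in WT. Of all called genes, 552 responded in the same direction in both strains, 1255 in WT only, 204 in Refbx23 only and 141 in opposite directions. As the contrast is the difference of these responses, these counts describe it and are no further test. When the genes were cut into 4 equal groups by mean FPKM, 31.9% were called in the lowest group, 22.9% and 24.7% in the middle groups and 36.2% in the highest.

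The largest negative contrasts fell into 2 kinds: genes almost silent in Refbx23 in VMMC, and genes high in Refbx23 in VMMG. In the first kind, PDE_03475, which carries the gene ontology (GO) term carbohydrate transport, was highly transcribed in only 1 of the 4 groups, WT in VMMC. In VMMC it had 8.91, 10.4 and 8.29 FPKM in Refbx23, against 5521, 6024 and 5935 FPKM in WT. In VMMG it had 3.27, 8.9 and 6.18 FPKM in Refbx23, against 5.37, 8.75 and 1.26 FPKM in WT. The Refbx23 and WT libraries lay far apart in VMMC and overlapped in VMMG, and the contrast was -9.54 ± 0.63 (SE, n = 3 per group, limma adjusted p = 6.8e-07). PDE_06899 and PDE_08440, which carry no annotation in the sources used here, followed the same course. PDE_06899 had 2.47, 1.96 and 1.43 FPKM in Refbx23 in VMMC, against 1994, 2158 and 2334 FPKM in WT, and 0.51, 1.51 and 0.7 FPKM in Refbx23 in VMMG, against 3.2, 5.02 and 0.41 FPKM in WT. PDE_08440 was listed at 0 in all 3 libraries of Refbx23 in VMMC, against 116, 107 and 168 FPKM in WT, and was listed at 0 in both strains in VMMG. The contrasts were -8.71 ± 0.60 (SE, n = 3 per group, limma adjusted p = 9.3e-07) for PDE_06899 and -7.01 ± 0.21 (SE, n = 3 per group, limma adjusted p = 8.4e-09) for PDE_08440.

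In the second kind, the level in VMMG was low in WT and high in Refbx23. PDE_07147 had 108, 417 and 187 FPKM in Refbx23 in VMMG, against 0.02, 0.02 and 9.43 FPKM in WT, and 27.4, 14.3 and 29.9 FPKM in Refbx23 in VMMC, against 120.1, 83.7 and 74 FPKM in WT. PDE_02342 had 291, 544 and 373 FPKM in Refbx23 in VMMG, against 0, 0.65 and 18.1 FPKM in WT, and 130.3, 136 and 148 FPKM in Refbx23 in VMMC, against 292, 264 and 281 FPKM in WT. Both were without annotation, and in both the groups did not overlap in either medium, with Refbx23 higher in VMMG and lower in VMMC; the VMMC differences of -1.95 and -1.01 did not pass the test. PDE_08250, a hydrolase acting on glycosyl bonds by its GO term, had 8.12, 147 and 65.7 FPKM in Refbx23 in VMMG and was listed at 0 in all 3 libraries of WT. PDE_09474 had 159.9, 394 and 289.5 FPKM in Refbx23 in VMMG, against 1.49, 1.28 and 15.3 FPKM in WT. WT replicate 3 was the highest WT library in VMMG for PDE_07147, PDE_02342 and PDE_09474, and all Refbx23 libraries lay above it. The largest contrasts were taken only from called genes whose strains did not overlap in the medium of larger difference. The lack of overlap there was thus a condition of choice and no further support. The contrasts were -8.47 ± 1.13, -7.96 ± 1.15, -6.97 ± 1.04 and -6.58 ± 0.87 in this order of genes (SE, limma adjusted p of 8.8e-05, 0.00016, 0.00019 and 8.5e-05). Across all genes tested, the Refbx23 and WT libraries did not overlap for 67.3% in VMMC and 57.8% in VMMG.

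The largest positive contrasts also came from either medium. PDE_03292 and PDE_06802, both without annotation, were nearly silent or low only in WT on cellulose. PDE_03292 had 653, 611 and 663 FPKM in Refbx23 in VMMC, against 1.36, 0.62 and 0.63 FPKM in WT, and 234, 114 and 85 FPKM in Refbx23 in VMMG, against 378, 198 and 70.0 FPKM in WT. PDE_06802 had 1843, 1862 and 2066 FPKM in Refbx23 in VMMC, against 48.5, 6.22 and 12.9 FPKM in WT, and 5648, 3367 and 3518 FPKM in Refbx23 in VMMG, against 8365, 6546 and 8749.6 FPKM in WT. For PDE_03292 the VMMG libraries of the strains overlapped, and for PDE_06802 those of Refbx23 were all below those of WT. The contrasts were 8.85 ± 0.73 (SE, n = 3 per group, limma adjusted p = 3.5e-06) and 7.76 ± 0.74 (SE, n = 3 per group, limma adjusted p = 9.5e-06). The neighbouring loci PDE_06034 and PDE_06035 had the same pattern, with 829.8 FPKM in Refbx23 and 12.5 FPKM in WT in VMMC, and 143 FPKM in Refbx23 and 626 FPKM in WT in VMMG for PDE_06035, and contrasts of 7.15 ± 1.06 and 7.44 ± 1.10 (SE).

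PDE_00022 and PDE_00023, also neighbours, were high in WT in VMMG and near 0 FPKM in the other 3 groups. The best match of PDE_00023 among the protein lists of the study is apoptosis-inducing factor homolog A of Dictyostelium discoideum. It had 1.09, 1.6 and 3.29 FPKM in Refbx23 in VMMG, against 1503, 1262 and 196 FPKM in WT, and 0.53, 0.29 and 0.19 FPKM in Refbx23 in VMMC, against 1.98, 0.06 and 0.31 FPKM in WT. The groups did not overlap in VMMG, where WT replicate 3 was the lowest WT library, and they overlapped in VMMC. The contrasts were 6.83 ± 0.82 (SE, n = 3 per group, limma adjusted p = 4.3e-05) for PDE_00022 and 7.71 ± 0.94 (SE, n = 3 per group, limma adjusted p = 4.9e-05) for PDE_00023. PDE_02070, without annotation, had the largest contrast of all, 9.83 ± 1.57 (SE, n = 3 per group, limma adjusted p = 0.00032). It had 88, 98.4 and 111 FPKM in Refbx23 in VMMC and was listed at 0 in all 3 libraries of WT there, and in VMMG it was listed at 0 in all 3 libraries of Refbx23, against 0, 8.58 and 78.8 FPKM in WT. Its WT libraries in VMMG ran from 0 to 78.8 FPKM, so its VMMG difference rested on 2 of 3 libraries.

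**Figure D2:**
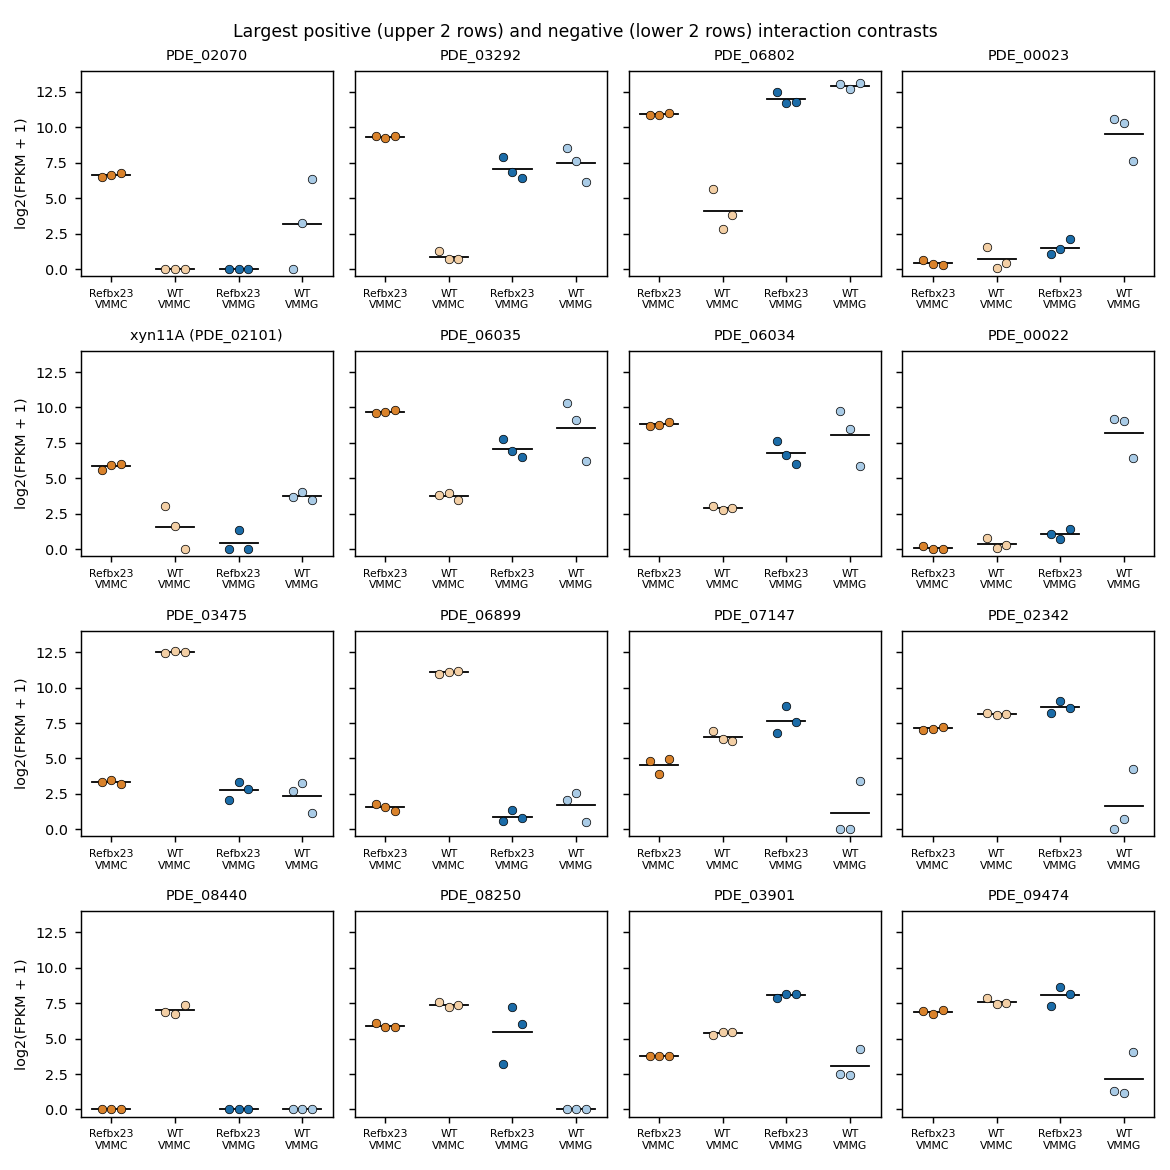
Points are single libraries on log2(FPKM + 1), with Refbx23 left of WT in VMMC and then in VMMG, and lines at the group means. Upper rows give the 8 largest positive and lower rows the 8 largest negative contrasts. These were taken from called genes whose strains did not overlap in the medium of larger difference. WT in VMMC is alone in being high for PDE_03475, PDE_06899 and PDE_08440, and WT in VMMG alone for PDE_00022 and PDE_00023.

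The 3 largest contrasts among genes changed in both media with opposite signs were those of PDE_02070, xyn11A and PDE_03901. PDE_03901, without annotation, had 12.9, 12.8 and 12.4 FPKM in Refbx23 in VMMC, against 38, 44.3 and 42.7 FPKM in WT, and 231, 279 and 289.6 FPKM in Refbx23 in VMMG, against 4.71, 4.52 and 18.3 FPKM in WT. Refbx23 was below WT in every library in VMMC and above it in every library in VMMG, with a contrast of -6.61 ± 0.53 (SE, n = 3 per group, limma adjusted p = 2.6e-06).

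Among called genes, the most abundant with a negative contrast were PDE_09832, PDE_09831 and PDE_09715. PDE_09832, assigned to the extracellular region by its GO term, was the most abundant called gene. It had 50522, 49102 and 49169 FPKM in Refbx23 in VMMC, against 55256, 54630.2 and 47772 FPKM in WT, and 90662, 116591 and 80574 FPKM in Refbx23 in VMMG, against 16969.6, 17375 and 19256 FPKM in WT. The strains overlapped in VMMC, and in VMMG every Refbx23 library was more than 4-fold above every WT library. Its contrast was -2.49 ± 0.28 (SE, n = 3 per group, limma adjusted p = 2.9e-05). Its neighbour PDE_09831 averaged 13042 FPKM in Refbx23 and 14831 FPKM in WT in VMMC, and 25056 FPKM in Refbx23 and 5583 FPKM in WT in VMMG. PDE_09715, also assigned to the extracellular region, averaged 6302 FPKM in Refbx23 and 3973 FPKM in WT in VMMC, and 11489 FPKM in Refbx23 and 2254 FPKM in WT in VMMG. The contrasts were -2.34 ± 0.22 and -1.75 ± 0.36 (SE). The most abundant with a positive contrast, PDE_02596, PDE_09952 and PDE_04682, had smaller contrasts of 1.32, 1.33 and 1.56, and their highest level was in WT in VMMG, at 13202, 12891 and 10550.2 FPKM on average.

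Of the 13 cellulase genes listed, 12 passed the filter, and 7 were called: 2 with a positive (16.7%) and 5 with a negative contrast (41.7%), against 12.2% positive and 16.8% negative over all genes tested, and with a median of -0.77 over the 12. The cellobiohydrolase genes cbh1 and cbh2, whose enzymes release cellobiose from chain ends, were lower in Refbx23 on cellulose. In VMMC cbh1 had 533, 667 and 727 FPKM in Refbx23, against 2588, 2568 and 2258 FPKM in WT, and cbh2 had 1087, 1122 and 1274 FPKM in Refbx23, against 2602, 3413 and 2623 FPKM in WT. In VMMG no library of either strain exceeded 5 FPKM for either gene, and the strains overlapped. The contrasts were -1.67 ± 0.39 (SE, n = 3 per group, limma adjusted p = 0.0038) for cbh1 and -1.56 ± 0.52 (SE, n = 3 per group, limma adjusted p = 0.025) for cbh2. The cbh2 call rested on single libraries: its adjusted p from limma was 0.054 without WT replicate 1 in VMMG, 0.058 without Refbx23 replicate 2 in VMMG or WT replicate 2 in VMMC, and 0.051 without Refbx23 replicate 1 in VMMC. With array weights the contrasts were -0.46 for cbh2 and -0.98 for cbh1, and neither was called.

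The glycoside hydrolase family 7 (GH7) cellulase gene PDE_05445 had 3.32, 3.51 and 3.11 FPKM in Refbx23 in VMMC, against 112, 122 and 111 FPKM in WT, and at most 1.03 FPKM in VMMG in both strains. Its contrast was -4.45 ± 0.13 (SE, n = 3 per group, limma adjusted p = 8.4e-09), the smallest error among the called cellulases. The endoglucanase genes eg2 and cel5C, whose enzymes cut within the chain, had contrasts of -1.21 ± 0.25 and -1.20 ± 0.24 (SE). In VMMC eg2 averaged 3.16 FPKM in Refbx23 and 7.12 in WT, and cel5C 161 and 255. In VMMG eg2 averaged 0.85 FPKM in Refbx23 and 0.59 in WT, and cel5C 21.3 and 14.6. Neither gene reached the threshold in either medium alone, and cel5C differed by -0.65 in VMMC and 0.55 in VMMG. The positive contrasts belonged to cel5E and cel12B, whose mean level was higher in VMMG than in VMMC in both strains. In VMMG cel5E had 36.9, 48.7 and 48.4 FPKM in Refbx23, against 587, 527 and 197 FPKM in WT, and cel12B had 17.1, 11.4 and 19.5 FPKM in Refbx23, against 122, 99.4 and 48.6 FPKM in WT. The strains did not overlap in VMMG for either gene, and in VMMC they differed by 0.20 and -0.21, which did not pass the test. The contrasts were 3.32 ± 0.47 (SE, n = 3 per group, limma adjusted p = 0.00015) and 2.14 ± 0.41 (SE, n = 3 per group, limma adjusted p = 0.0011). Without WT replicate 3 in VMMG the contrast of cel5C was -0.97 and was not called. The 5 cellulases not called (cel12A, eg5, eg1, PDE_09041 and cel5B) had contrasts between -0.90 and -0.13.

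Of the 7 hemicellulase and accessory genes, 6 were called, 2 positive (28.6%) and 4 negative (57.1%), against 12.2% positive and 16.8% negative over all genes tested. The median was -1.09, and -0.50 with a pseudocount of 0.1. The 2 xylanase genes, whose enzymes cut the xylan backbone, went opposite ways. For xyn11A, VMMC gave 48, 59.9 and 62.2 FPKM in Refbx23, against 7.43, 2.18 and 0 FPKM in WT, and VMMG gave 0, 1.59 and 0 FPKM in Refbx23, against 11.8, 15.2 and 10.1 FPKM in WT. Refbx23 was above WT in all libraries in VMMC and below it in all libraries in VMMG, and the contrast was 7.53 ± 0.88 (SE, n = 3 per group, limma adjusted p = 3.6e-05). For xyn10A, VMMC gave 71.6, 76.1 and 92.9 FPKM in Refbx23, against 343, 373 and 306 FPKM in WT, and in VMMG both strains stayed under 6 FPKM, with a contrast of -1.71 ± 0.25 (SE, n = 3 per group, limma adjusted p = 0.00017). The lytic polysaccharide monooxygenase gene, whose enzyme opens cellulose by oxidation, was close to 0 FPKM in VMMG in both strains and averaged 143 ± 15.9 FPKM in Refbx23 and 393 ± 51.3 FPKM in WT in VMMC (SD, n = 3 each). Its contrast was -1.22 ± 0.23 (SE) with the pseudocount of 1. It was -0.50 ± 0.78 (SE, limma adjusted p = 0.61) with a pseudocount of 0.1 and -0.78 with array weights, and was called in neither. The β-glucosidase gene bgl1 and the β-xylosidase gene xyl3A, whose enzymes release single sugars, differed in VMMG instead. In that medium bgl1 had 57.2, 32.9 and 55.1 FPKM in Refbx23, against 12.3, 15.5 and 23 FPKM in WT, and xyl3A had 21.8, 24 and 26.2 FPKM in Refbx23, against 9.33, 8.95 and 11.5 FPKM in WT. The bgl1 contrast of -1.09 ± 0.32 (SE, n = 3 per group, limma adjusted p = 0.012) fell short of the threshold without WT replicate 1, Refbx23 replicate 1 or Refbx23 replicate 3 in VMMG, at -0.90, -0.95 and -0.98. Swollenin, which loosens cell walls, had a contrast of 1.33 ± 0.22 (SE), and it reached the threshold in neither medium alone. The man5A gene was not called, with 0.50 ± 0.14 (SE).

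**Figure D3:**
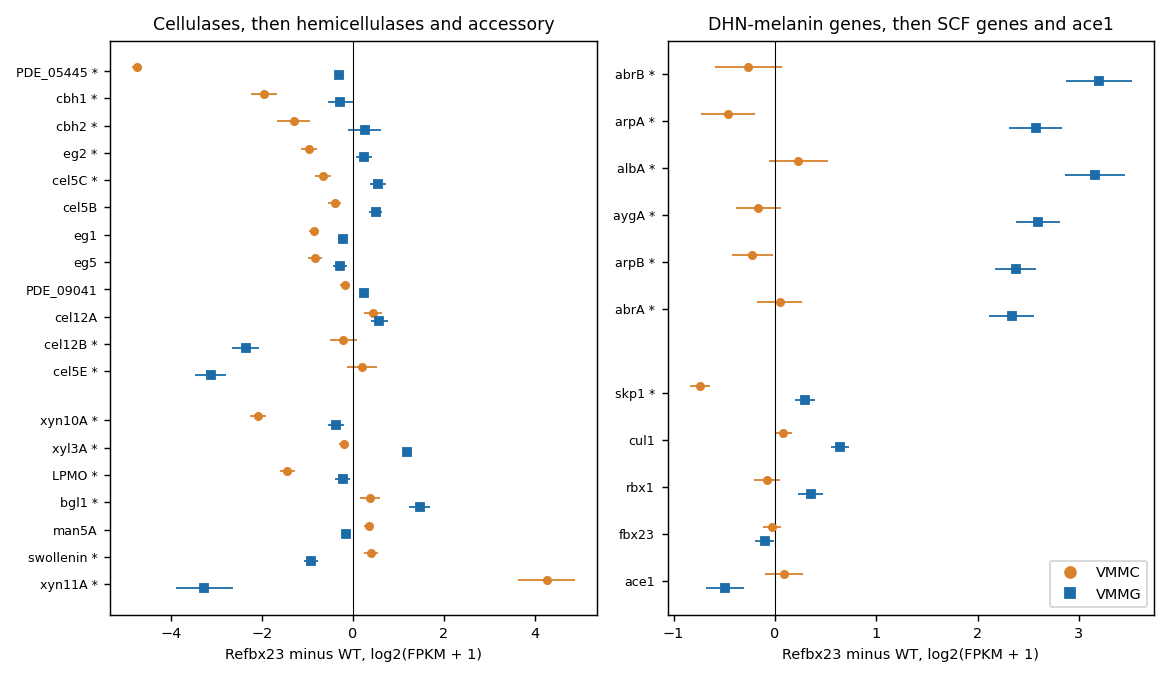
Points give the Refbx23 minus WT difference on log2(FPKM + 1) in VMMC (orange circles) and VMMG (blue squares) with standard errors, and an asterisk marks a called interaction. The cellobiohydrolases are low in VMMC alone, cel5E and cel12B are low in VMMG alone, and all 6 melanin genes are high in VMMG alone.

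All 6 DHN-melanin genes (100%) were called with a negative contrast, against 16.8% negative over all genes tested, and their median was -2.84. They comprise the polyketide synthase gene albA, the reductase genes arpA and arpB, aygA, and the late genes abrA and abrB, the last coding for a laccase. In VMMG albA had 148, 219 and 226 FPKM in Refbx23, against 13.1, 18.6 and 36.9 FPKM in WT, and abrB had 626, 1016 and 832 FPKM in Refbx23, against 54.1, 73.8 and 166 FPKM in WT. In VMMC albA had 91.2, 93.7 and 89.7 FPKM in Refbx23, against 89.8, 74.7 and 70.2 FPKM in WT, and abrB had 300.1, 296 and 325 FPKM in Refbx23, against 431, 334 and 347 FPKM in WT. For both genes the strains did not overlap in VMMG, and in VMMC they overlapped for albA while abrB was lower in Refbx23 by less than the threshold. Their contrasts were -2.93 ± 0.41 (SE, n = 3 per group, limma adjusted p = 0.00014) and -3.46 ± 0.46 (SE, n = 3 per group, limma adjusted p = 9.3e-05). The 6 genes differed by 2.34 to 3.20 in VMMG and by -0.46 to 0.23 in VMMC. Their summed level ran from 2511 to 2707 FPKM in Refbx23 and from 2841 to 3259.7 FPKM in WT in VMMC, and from 3707 to 4481 FPKM in Refbx23 and from 477 to 1074 FPKM in WT in VMMG, with WT replicate 3 the highest. Melanin genes are used as marks of conidial development. They were among the genes called higher in Refbx23 in VMMG. Whether their levels moved with those of the other such genes, and the part of conidia in those results, were not tested.

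The genes of cytosolic ribosomal proteins, which make up the translating ribosome, went the other way from the melanin genes. The list holds 15 genes, those with such a description among the proteins of the affinity purification tables, and not every ribosomal protein. Of the 15, 14 were called with a positive contrast (93.3%) and none with a negative one, against 12.2% positive and 16.8% negative over all genes tested, with a median of 1.33 and a range of 0.99 to 1.75. Their summed level ran from 23651 to 25035 FPKM in Refbx23 and from 13862 to 17394 FPKM in WT in VMMC, and from 23012 to 25096 FPKM in Refbx23 and from 30421 to 51529 FPKM in WT in VMMG. The sums of Refbx23 overlapped between the media, and those of WT did not. Refbx23 was above WT in every library for all 15 genes in VMMC, by 0.55 to 0.81, and below WT in every library for 14 genes in VMMG, where the differences of the 15 ran from -1.13 to -0.44. Over all genes tested, the strains did not overlap, in either direction, for 67.3% in VMMC and 57.8% in VMMG. In 13 of the 14 called genes neither medium alone passed the 2-fold threshold. The exception was PDE_05635, whose best match is the large subunit protein L38 of Neurospora crassa, with 415, 386 and 410 FPKM in Refbx23 in VMMC, against 285, 239 and 262 FPKM in WT, and 344, 309 and 301 FPKM in Refbx23 in VMMG, against 548, 614 and 998 FPKM in WT. Its contrast was 1.75 ± 0.26 (SE, n = 3 per group, limma adjusted p = 0.00018), and it was picked after its values were seen, as was PDE_02907, the gene not called, with 0.99 ± 0.26 (SE). Without WT replicate 3 in VMMG, the highest library of WT for these genes, 11 were called and the median was 1.10. After median-ratio scaling all 15 were called. The 3 proteasome subunit genes listed were not called, with contrasts of 0.14 to 0.25.

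Of the 5 genes fbx23, skp1, cul1, rbx1 and ace1, only skp1 was called (20%), against 28.9% of all genes tested. In VMMC skp1 had 278, 259.5 and 261 FPKM in Refbx23, against 486, 394 and 462 FPKM in WT. In VMMG it had 201, 167 and 187 FPKM in Refbx23, against 160.1, 146 and 144 FPKM in WT. The strains did not overlap in either medium, and the contrast was -1.04 ± 0.14 (SE, n = 3 per group, limma adjusted p = 9.6e-05). It was -0.98 and not called after median-ratio scaling of the libraries, and likewise -0.98 without Refbx23 replicate 1 in VMMG or without WT replicate 1 in VMMC. The contrasts of cul1 and rbx1 were -0.56 ± 0.12 and -0.43 ± 0.18 (SE). For ace1, VMMC gave 148, 159 and 145 FPKM in Refbx23, against 121, 165 and 142 FPKM in WT, and VMMG gave 90.8, 87.3 and 106 FPKM in Refbx23, against 169.7, 146 and 94.5 FPKM in WT. The ace1 contrast of 0.58 ± 0.27 (SE, n = 3 per group, limma adjusted p = 0.085) was not called.

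The GO terms of polysaccharide breakdown and transport described here are those the study found enriched in Δfbx23 against WT in VMMC, so they share WT libraries with the contrast. Over all genes tested, 12.2% were positive and 16.8% negative. Of 18 genes tested in cellulose catabolic process, 1 was positive and 9 negative, with a median of -0.98 that was -0.64 with array weights. Of 11 xylanase activity genes, 4 were positive and 6 negative, and of 14 polygalacturonase activity genes, which act on pectin, 2 were positive and 7 negative. The median was -1.40 for xylanase activity. For polygalacturonase activity it was -0.86, but -1.32 without Refbx23 replicate 1 in VMMC, -2.33 over the 8 genes averaging 5 FPKM or more and -0.46 over 16 genes with no filter. The positive share of polygalacturonase genes, 14.3%, was near that of all genes. The xylanase gene PDE_06306 was listed at 0 in all 3 libraries of Refbx23 in VMMG, against 3.3, 2.73 and 3.47 FPKM in WT, and had 29.3, 26 and 26.6 FPKM in Refbx23 in VMMC, against 15, 14.7 and 7.42 FPKM in WT. The polygalacturonase gene PDE_09285 had 92, 104 and 78 FPKM in Refbx23 in VMMC, against 376, 525 and 556 FPKM in WT, and 16.4, 20.4 and 23.7 FPKM in Refbx23 in VMMG, against 4.15, 5.25 and 7.45 FPKM in WT. These 2 genes had the opposite order of strains in the 2 media with no overlap, with contrasts of 3.19 ± 0.29 (SE, n = 3 per group, limma adjusted p = 7.1e-06) and -4.08 ± 0.29 (SE, n = 3 per group, limma adjusted p = 1.3e-06). Of the 24 cellulose binding genes tested, 6 were positive and 8 negative, and of the 21 in hemicellulose catabolic process, 3 were positive (14.3%, likewise near all genes) and 8 negative. PDE_00698 of cellulase activity had 114, 121 and 95.4 FPKM in Refbx23 in VMMC, against 19.1, 23.9 and 18.1 FPKM in WT, while PDE_01261 of the same term had 191, 186 and 191 FPKM in Refbx23, against 709, 792 and 644 FPKM in WT. The strains did not overlap for either gene, Refbx23 being higher for PDE_00698 and lower for PDE_01261, and the contrasts were 2.11 ± 0.42 and -1.64 ± 0.31 (SE). With a pseudocount of 0.1 the contrast of PDE_01261 was -1.19 ± 1.03 (SE, limma adjusted p = 0.35) and was not called. PDE_04478 and PDE_02682, of cell wall polysaccharide breakdown, had -2.82 ± 0.23 and 2.99 ± 0.39 (SE). Among the other polygalacturonase genes, PDE_08139 and PDE_01339 had contrasts of -3.19 ± 0.29 and -3.08 ± 0.46 (SE).

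Of 42 carbohydrate transport genes tested, 6 were positive and 14 negative, with a median of -0.58 that was -0.35 with array weights and -0.24 with no filter. Beside PDE_03475, the largest were PDE_09628 and PDE_02513, assigned to this term as well. PDE_09628 had 47.8, 264 and 137 FPKM in Refbx23 in VMMG, against 1.61, 2.6 and 4.78 FPKM in WT, and 7.12, 6.47 and 8.47 FPKM in Refbx23 in VMMC, against 27.9, 21.3 and 22.3 FPKM in WT. PDE_02513 had 47.5, 44.6 and 47.8 FPKM in Refbx23 in VMMC, against 1.99, 1.43 and 2.31 FPKM in WT, and 29.6, 21.8 and 21.7 FPKM in Refbx23 in VMMG, against 30.2, 29.6 and 36.2 FPKM in WT. The contrasts were -6.57 ± 0.69 (SE, n = 3 per group, limma adjusted p = 1.8e-05) and 4.43 ± 0.20 (SE, n = 3 per group, limma adjusted p = 1.1e-07). Of 27 amino acid transport genes, 8 were positive and 9 negative. Their median of 0.19 had no stable sign or size: it was 0.07 without Refbx23 replicate 2 in VMMG, 0.12 without WT replicate 1 and 0.28 without WT replicate 3 in that medium, 0.09 with no filter, -0.03 with array weights and -0.50 over the 23 genes averaging 5 FPKM or more. The largest were PDE_09673 with 4.03 ± 0.31, PDE_02398 with 3.69 ± 0.37 and PDE_01350 with -3.33 ± 0.19 (SE), and all 3 had opposite signs in the 2 media. PDE_09673 averaged 10.1 FPKM in Refbx23 and 3.64 FPKM in WT in VMMC, and 8.04 FPKM in Refbx23 and 60.1 FPKM in WT in VMMG, and PDE_01350 averaged 12.7 FPKM in Refbx23 and 56.2 FPKM in WT in VMMC, and 37.8 FPKM in Refbx23 and 15.4 FPKM in WT in VMMG. Both shares of called genes, 47.6% for carbohydrate and 63.0% for amino acid transport, stood beside the 28.9% over all genes tested, with no test of the lists.

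**Figure D4:**
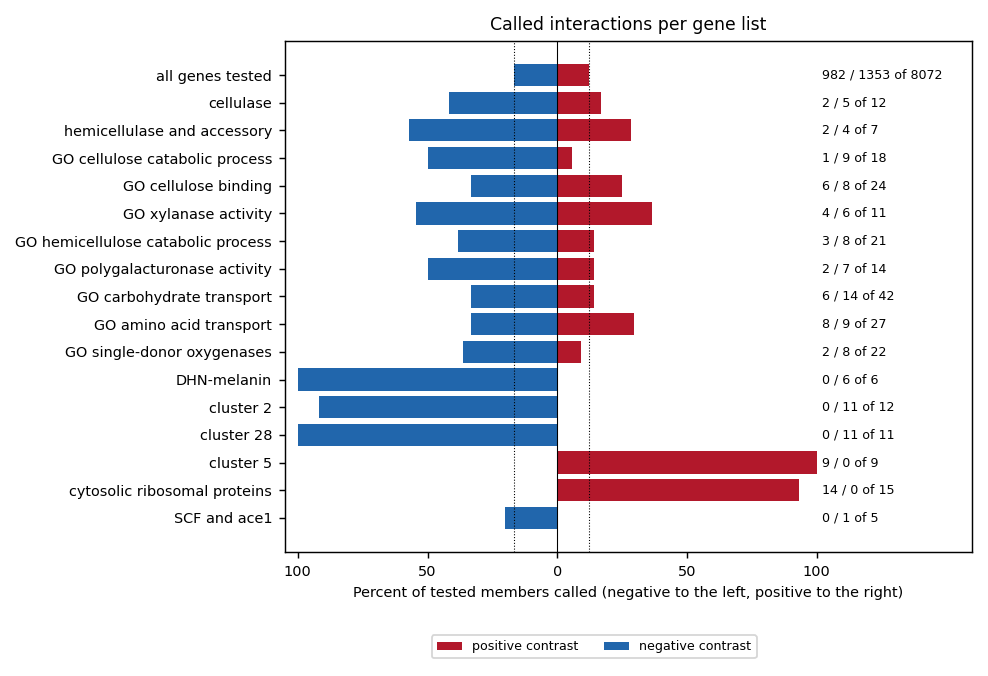
Bars give the percent of tested members with a called interaction, positive to the right and negative to the left, with counts of positive and negative members at the right. Dotted lines mark the shares over all genes tested, 12.2% and 16.8%. The melanin genes and clusters 2 and 28 lie to the left, and cluster 5 and the ribosomal protein genes to the right.

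Called genes lay next to each other in several places. Runs of at least 4 tested genes in order of locus number, with steps of at most 2 and all called in 1 direction, numbered 35. Of these 27 were negative and 8 positive, and they held 172 of the called genes (7.37%). How many such runs to expect with 28.9% of all genes called was not worked out. The longest had 12 genes, PDE_09999 to PDE_10010, with a median contrast of -2.78. It held all 11 tested genes of secondary metabolism cluster 28, read as PDE_09999 to PDE_10009, against 16.8% negative over all genes tested. The supplementary list of clusters prints its start as PDE_09499, which was taken as a misprint. Over the range as printed, 53 of 414 tested genes were positive and 79 negative, together 31.9%, near the 28.9% over all genes. Its polyketide synthase gene PDE_10006 had 48, 64.4 and 74.5 FPKM in Refbx23 in VMMG, against 2.53, 3.5 and 7.68 FPKM in WT, and 29.1, 30.3 and 30.3 FPKM in Refbx23 in VMMC, against 19.7, 16.5 and 16.9 FPKM in WT. Refbx23 was above WT in every library of both media, and the contrast was -2.86 ± 0.38 (SE, n = 3 per group, limma adjusted p = 9.2e-05). The run was picked on negative contrasts, which hold the VMMG difference, so counts in VMMG describe it and are no further support. Over all genes tested, 11.5% were called higher in Refbx23 in VMMG. Of the 12 genes, 11 were higher in Refbx23 in VMMG, and PDE_10000 was the exception. It was listed at 0 in all 6 Refbx23 libraries, against 54.8, 29.1 and 45.9 FPKM in WT in VMMC and 3.8, 3.01 and 2.16 FPKM in WT in VMMG.

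The run PDE_01063 to PDE_01071, of 9 genes, had a median contrast of -2.51 and overlapped cluster 2. Of the 12 tested genes of cluster 2, 11 were negative (91.7%), against 16.8% over all genes tested. Its non-ribosomal peptide synthetase gene PDE_01071 had 37.8, 58.9 and 56.5 FPKM in Refbx23 in VMMG, against 1.63, 2.28 and 4.51 FPKM in WT, and 19.5, 20.4 and 20.5 FPKM in Refbx23 in VMMC, against 14.5, 13 and 12.8 FPKM in WT. Its dimethylallyl tryptophan synthase gene PDE_01066 had a contrast of -2.30 ± 0.39 (SE). In VMMG Refbx23 exceeded WT for all 9 genes, by a median of 2.70, and 11.5% of all genes tested were called higher there. The run was picked on negative contrasts, which hold the VMMG difference, so this count is no further support. Among all 1353 genes with a negative contrast, 575 were called higher in Refbx23 in VMMG only. Another 91 were higher there with the opposite sign in VMMC, and 21 were higher in both media.

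The run PDE_01212 to PDE_01222, of 11 genes, was positive, with a median of 2.91. It held all 9 tested genes of cluster 5, against 12.2% positive over all genes tested. The run was picked on positive contrasts, which hold the VMMG difference, so counts in VMMG describe it and are no further support. Among all 982 genes with a positive contrast, 340 were called lower in Refbx23 in VMMG only. Another 74 were lower there with the opposite sign in VMMC, and 5 were lower in both media. In VMMG 10 of the 11 genes of the run were called lower in Refbx23, against 6.96% of all genes tested, and the median difference was -2.13. Its non-ribosomal peptide synthetase gene PDE_01212 had 3.18, 2.78 and 3.82 FPKM in Refbx23 in VMMG, against 24.9, 10.9 and 3 FPKM in WT, and 15.4, 13.5 and 15.1 FPKM in Refbx23 in VMMC, against 7.76, 9.89 and 11.1 FPKM in WT. The strains overlapped in VMMG because WT replicate 3 was low, and the contrast of 1.92 ± 0.69 (SE, n = 3 per group, limma adjusted p = 0.035) was 1 of the least certain in the run. Its call and that of PDE_01213 were lost when most single libraries were left out, at contrasts of 1.79 to 2.02 for PDE_01212 and 1.93 to 3.05 for PDE_01213 (2.88 with all libraries) and limma adjusted p of 0.050 to 0.084. Calls were also lost for PDE_01215 and PDE_01220 when some were. Without WT replicate 3 in VMMG, all 9 genes of the cluster were still called and their median contrast was 4.03, against 2.91 with it. PDE_01219, with the largest contrast of the run, had 6.3, 2.94 and 4.61 FPKM in Refbx23 in VMMG, against 59.3, 32.1 and 5.72 FPKM in WT, and 7.43, 4.23 and 5.94 FPKM in Refbx23 in VMMC, against 0, 0.09 and 0 FPKM in WT, for a contrast of 4.84 ± 0.86 (SE, n = 3 per group, limma adjusted p = 0.00070).

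The run PDE_03412 to PDE_03417, of 6 genes with a median of 4.41, included both tested genes of cluster 12, against 12.2% positive over all genes tested. Its genes PDE_03413 to PDE_03417 were near 0 FPKM in VMMC in both strains and higher in WT in VMMG. PDE_03414 had 3.23, 2.12 and 4.17 FPKM in Refbx23 in VMMG, against 456, 371 and 73.8 FPKM in WT, and the non-ribosomal peptide synthetase gene PDE_03416 had 1.98, 3.06 and 4.08 FPKM in Refbx23, against 88.8, 81.5 and 18.6 FPKM in WT. The groups did not overlap for either gene, and the contrasts were 5.66 ± 0.76 (SE, n = 3 per group, limma adjusted p = 9.1e-05) and 3.61 ± 0.65 (SE, n = 3 per group, limma adjusted p = 0.00074). PDE_03412 at the edge, whose best match in the protein lists is saf1 of Schizosaccharomyces pombe, was expressed in all groups and had the smallest contrast, 1.07 ± 0.16 (SE).

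**Figure D5:**
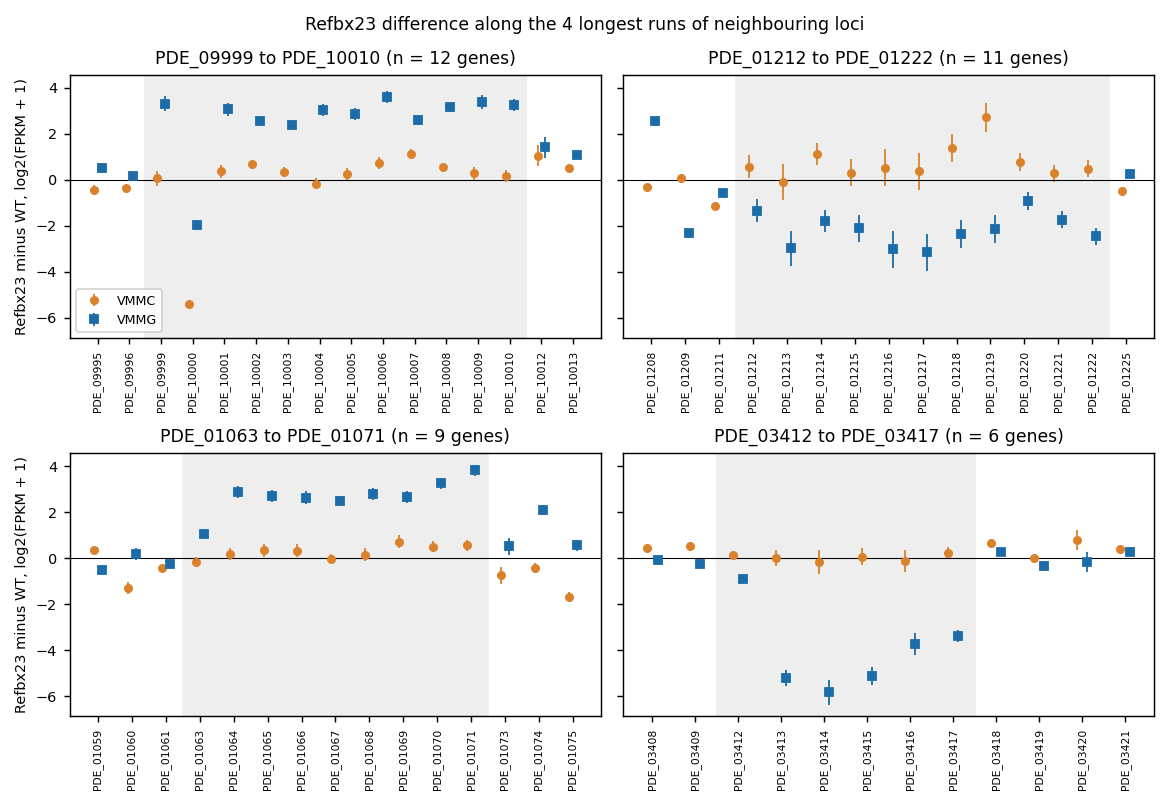
Points give the Refbx23 minus WT difference on log2(FPKM + 1) with standard errors in VMMC (orange circles) and VMMG (blue squares), in order of locus number, with the run shaded and tested neighbours beside it. In the runs of 12 and 9 genes the VMMG differences lie above 0 but for PDE_10000, in the runs of 11 and 6 genes they lie below 0, and the VMMC differences stay nearer to 0 for most genes.

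Over the 27 secondary metabolism clusters with a tested gene, 33 of 239 genes were positive (13.8%) and 71 negative (29.7%), against 12.2% positive and 16.8% negative over all genes tested. In 12 clusters the called genes were at least as many as those not called. All tested genes were called in clusters 5, 12, 13 and, with the range read as above, 28, and none in 3 other clusters. The backbone gene, which codes for the enzyme that builds the core of the product, was called in several of them. The backbone genes PDE_02141 of cluster 8, PDE_03455 of cluster 13 and PDE_01432 of cluster 7 had contrasts of -2.22 ± 0.36, -2.16 ± 0.29 and -2.13 ± 0.27 (SE), and each was higher in Refbx23 in VMMG. PDE_02141 had 52.3, 46.7 and 56.3 FPKM in Refbx23 in VMMG, against 5.41, 7.72 and 15.1 FPKM in WT, and PDE_01432 had 19.6, 26.9 and 34.6 FPKM in Refbx23, against 4.42, 5.51 and 6.97 FPKM in WT. The strains did not overlap for either gene in VMMG. PDE_08155 of cluster 24, a gene of the non-ribosomal peptide synthetase-like kind, went the other way, with 171, 196 and 191 FPKM in Refbx23 in VMMC, against 35.5, 37 and 38.4 FPKM in WT, and a contrast of 1.46 ± 0.30 (SE, n = 3 per group, limma adjusted p = 0.0016). The backbone gene PDE_07005 of cluster 21, a non-ribosomal peptide synthetase gene, had -1.01 ± 0.17 (SE), close to the threshold, and lost its call when any 1 of 6 libraries was left out, as far as -0.95 without WT replicate 3 in VMMG. PDE_02131 of cluster 8 and PDE_04252 of cluster 16 were not called, with -0.54 and -0.51.

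The Δfbx23 libraries, which entered only an alternative fit of all 18 libraries, are given beside the genes that differed most, since they share the deletion background with Refbx23. The genes silent in Refbx23 in VMMC were low there too: PDE_03475 had 3.74, 3.2 and 3.51 FPKM in Δfbx23 in VMMC, PDE_06899 had 1.56, 0.43 and 0.81 FPKM in Δfbx23 in VMMC, and PDE_08440 was listed at 0 in all 3 libraries of Δfbx23 in VMMC. PDE_06802 averaged 1964 FPKM in Δfbx23 in VMMC, near the 1924 FPKM of Refbx23. Of the 46 named genes called for the interaction and higher in Refbx23 in VMMG, all Δfbx23 libraries lay below all WT libraries there for 34 and above them for 5, and the strains overlapped or tied at 0 for 7. Among the 5 was PDE_07147, with 13.2, 12 and 19.4 FPKM in Δfbx23 in VMMG. The same shares were not taken over all genes tested, and many of the 46 belong to the same runs or lists. The counts therefore describe only these named genes. In VMMG albA had 1.02, 1.02 and 0.82 FPKM in Δfbx23, abrB had 1.45, 2.96 and 1.52 FPKM in Δfbx23, and PDE_10006 had 0.06, 0.11 and 0.09 FPKM in Δfbx23, each below all WT libraries. The cellobiohydrolase gene cbh2 averaged 6663 FPKM in Δfbx23 in VMMC, above both other strains, and xyn11A 437 FPKM.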

How the data were processed

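Total RNA of P. oxalicum mycelium was sequenced by a provider on BGISEQ-500 according to the methods, while the labels describe tag-based digital gene expression, and which holds could not be settled. The authors mapped the reads to the reference genome and deposited FPKM per gene with 2 decimals, without pooling replicates; the aligner and annotation are not given in the sources used here. The deposited FPKM were not rescaled. Reads per library are unknown. The commonest ratio between low values (0.2 to 3 FPKM) of the same gene in 2 libraries lay between 0.914 and 0.993 against the first WT library in VMMG, over 478 to 1039 genes, so no large difference in depth was seen, and no counting limit can be given for a value listed at 0.

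The labels gave each library its strain and medium. The 12 libraries of Refbx23 and WT were fitted together, 1 mean per group, on log2(FPKM + 1) by limma 3.58.1 (R 4.3.3, trend on the mean level switched on), and the 5 contrasts (the interaction, the strain difference in each medium and the response to medium in each strain) were taken from this fit. Replicate numbers did not pair the libraries: the correlations of same-numbered libraries across groups ran from -0.12 to 0.26, and 2 of 18 exceeded 0.1. Adjusted p-values are Benjamini-Hochberg values over all 8072 genes. On simulated data with 200 genes given an interaction of 2 on the log2 scale, among 8057 genes tested, 96% were recovered and 0.573% of the unchanged genes were called. The simulated noise was independent between genes, with 1 spread per gene for all groups, and the changed genes were low in no group. The real libraries differed in spread and many genes were low, so these rates are not those of the calls reported here. Names and roles came from the study's gene lists, cluster ranges and GO lists; the ranges of clusters 7, 20 and 28, whose printed ends were out of order or far apart, were read as PDE_01418 to PDE_01433, PDE_06623 to PDE_06630 and PDE_09999 to PDE_10009. Genes were named by rules on list membership, size of contrast, level and position in runs, with a fixed number per rule, and the members, lists and rules were chosen with earlier results of these data known. The largest contrasts of each direction were limited to called genes whose Refbx23 and WT libraries did not overlap in the medium of larger difference. Positions and sequences are not given, as the reference at hand is of another strain and shares no identifiers with the table. Alternatives were other pseudocounts, filters, scaling, weights and covariates, all 18 libraries in the fit, each medium fitted alone and each library left out in turn. Figures were drawn with Python 3.11.15, pandas 2.3.3 and matplotlib 3.10.9.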

Additional observations from a re-analysis of the deposited data

Results flagged for a closer look

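The effect of strain differed between the media for 2335 genes by the test of the interaction itself, and for 165 of these the difference was called in both media with opposite signs. The 3 with the largest contrasts among them were PDE_02070 at 9.83, xyn11A (PDE_02101) at 7.53 and PDE_03901 at -6.61 on log2(FPKM + 1). PDE_02070 was listed at 0 in all Refbx23 libraries in VMMG and all WT libraries in VMMC. Dixon's test for an outlying library was not run on groups of 3.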

How the results depend on the processing

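No alternative reversed the contrast of any of the 108 named genes, and 92 kept their side of the threshold throughout; 15 of the 104 called ones lost the call at least once and 1 gained it. Counts of interaction genes stayed within 2006 to 2492 except without the fold threshold, where they reached 4605, and strain differences reached 3975 in VMMC and 4472 in VMMG, responses 4504 in Refbx23 and 6138 in WT. The classes then held 1163 (VMMC only), 1618 (VMMG only), 1304 (opposite signs), 357 (same sign) and 163 (neither), and runs numbered 127. Array weights, whose estimation stopped before its tolerance, gave 79 genes with the same sign in both media. Leaving out 1 library gave 2236 to 2399 interaction genes, 925 to 1010 and 1412 to 1613 strain differences in VMMC and VMMG, 1643 to 1748 responses in Refbx23 and 3270.0 to 3383 in WT, 43 to 68 same-sign and 144 to 182 opposite-sign genes, 459 to 514 (VMMC only), 874 to 1013 (VMMG only), 660.0 to 733 (neither), 30.0 to 42 runs and 18 to 21 called members of the 4 gene lists. The replicate block, which pairs nothing by design, gave 2335 interaction genes, 2324 of them shared. Median-ratio scaling moved the median contrast by 0.06 and the positive share to 45.8%, from 42.1%. Depth is unknown, so counting error at low level cannot be given. Counts per list and of runs under the alternatives, and cluster 28 over its printed range, were added after seeing the data.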

Other observations

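Oxygenases and sodium transporters were not described above. Of 22 genes tested for oxidoreductase activity on single donors with incorporation of molecular oxygen, 2 were positive (9.09%) and 8 negative (36.4%), against 12.2% positive and 16.8% negative over all genes tested. The largest was PDE_08904, with 11.4, 12.1 and 10.7 FPKM in Refbx23 in VMMC, against 250.4, 261 and 285 FPKM in WT, and a contrast of -3.93 ± 0.42 (SE, limma adjusted p = 2.1e-05). Of 7 sodium ion transport genes, 3 were negative (42.9%, a share of few genes) and none positive, led by PDE_03497 at -3.34 ± 0.18 (SE), which averaged 12.4 FPKM in WT in VMMC and at most 0.5 FPKM in the other 3 groups.

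Only 2 genes tested, picked after their values were seen, were listed at 0 in all 6 Refbx23 libraries and above 0 in all 6 WT libraries, and none showed the reverse. PDE_00836 averaged 76.2 FPKM in WT in VMMC and 14.2 FPKM in WT in VMMG, and was also listed at 0 in all 6 Δfbx23 libraries. PDE_10000, inside secondary metabolism cluster 28, averaged 43.3 and 2.99 FPKM in WT in these media, and was above 0 in all 6 Δfbx23 libraries, with means of 9.18 FPKM in VMMC and 0.55 FPKM in VMMG. Its neighbours on both sides were transcribed in every Refbx23 library.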
